A study of Mus musculus with 2 samples.

Results

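The genes described here are the expressed members of the solute carrier (Slc) superfamily in single cells of the murine retinal pigment epithelium (RPE). They comprise every gene whose symbol starts with Slc and a number and whose mean level reached 0.1 unique molecular identifiers (UMIs) per 10000 UMIs in Ttr-high cells of both mice. Ttr-high cells had at least 5% of their UMIs from Ttr, the transthyretin gene, together with at least 500 genes and at most 5% mitochondrial UMIs. The files listed 27998 genes, of which 373 had an Slc symbol and 116 of these reached the floor. A set of 9 genes was excluded by name (Slc16a1, Slc16a3, Slc16a8, Slc2a1, Slc2a3, Slc45a2, Slc24a1, Slc7a11 and Slc40a1), 5 of them over the floor, which left 111 members from 38 families. All 111 are annotated as protein coding, but at least 2 are not carriers themselves. Slc9a3r1 encodes the scaffold protein NHERF1, and Slc7a6os carries its symbol because it neighbours Slc7a6. A further member, Slc3a2, encodes the heavy subunit of amino acid exchangers and was grouped with amino acid carriers.

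Both samples, R1 and R2, were RPE cells from a male C57BL/6J mouse, with the 2 eyes of each animal pooled. There was no treatment, mutant allele or second condition, so the comparisons below are between cells of the same mouse. Age was postnatal day 36 by the protocol and 4 to 5 weeks by the sample labels. Cells were released with trypsin from the opened eyecup after the retina had been peeled off, and viable cells were sorted as positive for calcein and negative for DAPI.

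Solute carriers are membrane proteins that move ions, nutrients, metabolites and metals across the plasma membrane or across the membranes of organelles, mostly by coupling a substrate to an ion gradient or to an exchanged solute. The RPE is a polarised monolayer between the choroidal blood supply and the photoreceptors, and carriers of its apical and basal membranes handle sugars, lactate, amino acids, taurine, bicarbonate, chloride and phosphate on the way between them. Most carriers of the Slc25 family sit in the inner membrane of mitochondria and exchange nucleotides, phosphate and intermediates of metabolism with the cytosol.

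Of 2844 deposited cells of R1 and 2994 of R2, 2782 and 2966 met the limits on genes and mitochondrial UMIs, and 12 cell barcodes occurred in both mice. There were 2723 and 2947 Ttr-high cells with medians of 8751 and 8158 UMIs. Cells with Ttr below 3% of UMIs, called Ttr-low, numbered 59 and 19, with medians of 3200 and 3836 UMIs and sums of 192400 and 91115 UMIs, and 0 cells lay between these limits. At least 3 of 8 RPE markers were found in every Ttr-high cell and in 52 of 59 and 15 of 19 Ttr-low cells, but the median summed level of these markers was 382 and 448 UMIs per 10000 in Ttr-high against 35.1 and 24.9 in Ttr-low cells. Best1 was at 0 in Ttr-low cells and close to 0 in Ttr-high cells (0.00261 and 0.00377 UMIs per 10000). A list of low-Ttr pigment cells had 8 markers, among them Mlana, Dct and Pmel. At least 3 of these 8 markers were found in 54 and 16 Ttr-low cells. The median summed level of that list was 312 and 237 UMIs per 10000 in Ttr-low against 13.0 and 9.24 in Ttr-high cells. Mlana, Dct and Pmel were reported by the paper as high in a small cluster of cells from these same libraries. Ttr was reported as lower in that cluster, less so in R2 than in R1. The high level of this list in Ttr-low cells is therefore not independent evidence of what these cells are. At least 3 of 6 Muller glia markers were found in 7 and 4 Ttr-low cells and in 324 and 388 Ttr-high cells. Of these markers, Dkk3 is also in the list of low-Ttr pigment cells. The summed level of the 6 markers had medians of 19.3 and 24.3 in Ttr-low against 2.47 and 2.60 in Ttr-high cells. Ciliary epithelium markers, 5 in the files, reached 3 in 1 and 2 Ttr-low cells, with mean summed levels of 1.29 and 2.67 against 0.0204 and 0.0119. These cells stayed in when cells marked as another type were left out. All rod markers were at 0 in Ttr-low cells. Cells with at least 3 markers of a list were marked as that type, and lists of other cell types, those of Muller glia and ciliary epithelium not counted, marked 5 and 3 Ttr-low cells, among them 3 and 2 by fibroblast and 2 and 1 by macrophage or microglia genes. The share of mitochondrial UMIs was higher in Ttr-low cells (medians 2.57% and 3.35%) than in Ttr-high cells (1.29% and 1.25%). The part of these differences in the results below was not tested, except where values without the marked cells are given.

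The most abundant member in Ttr-high cells was Slc25a4, which encodes an ADP/ATP carrier of the mitochondrial inner membrane (chr8:46206797-46211284, minus strand, GRCm38). Its level (UMIs per 10000 of a cell's UMIs, averaged over cells) was 22.1 in R1 and 26.0 in R2. Such a UMI counts a captured 3′ end whatever the length of the transcript, so levels of different genes can be set side by side, although capture may differ between genes. These levels chose the members and are given as a description without a test. Next came Slc6a13 (chr6:121300227-121337733, plus strand), a sodium-coupled transporter of GABA and taurine, with levels of 8.94 and 8.85. Slc9a3r1 followed with 6.79 and 8.06, ahead of Slc25a5, a second ADP/ATP carrier, with 5.76 and 6.42. The neuronal-type glutamate transporter Slc1a1 stood at 5.67 and 5.54. The levels of the mitochondrial phosphate carrier Slc25a3 were 4.63 and 5.20, and those of the imino acid transporter Slc6a20a were 4.83 and 4.54, so that these neighbours in rank changed places between the mice. The haem transporter Slc48a1 had levels of 4.38 and 4.32. The remaining 4 of the 12 highest members were the sodium bicarbonate cotransporter Slc4a5 (3.80 and 3.03), the heavy chain of amino acid exchangers Slc3a2 (3.41 and 3.13), its light-chain partner for small neutral amino acids Slc7a10 (3.41 and 3.12) and the chloride/bicarbonate exchanger Slc4a2 (3.61 and 2.81). The last 4 overlapped in level between the mice and have no fixed order. Slc25a4 and Slc25a5 are similar in sequence and have processed copies in the genome, as does Slc25a3, and Slc6a20a has a close paralogue. Reads that matched such copies equally well were not examined here, so these levels carry that uncertainty.

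**Figure D1:**
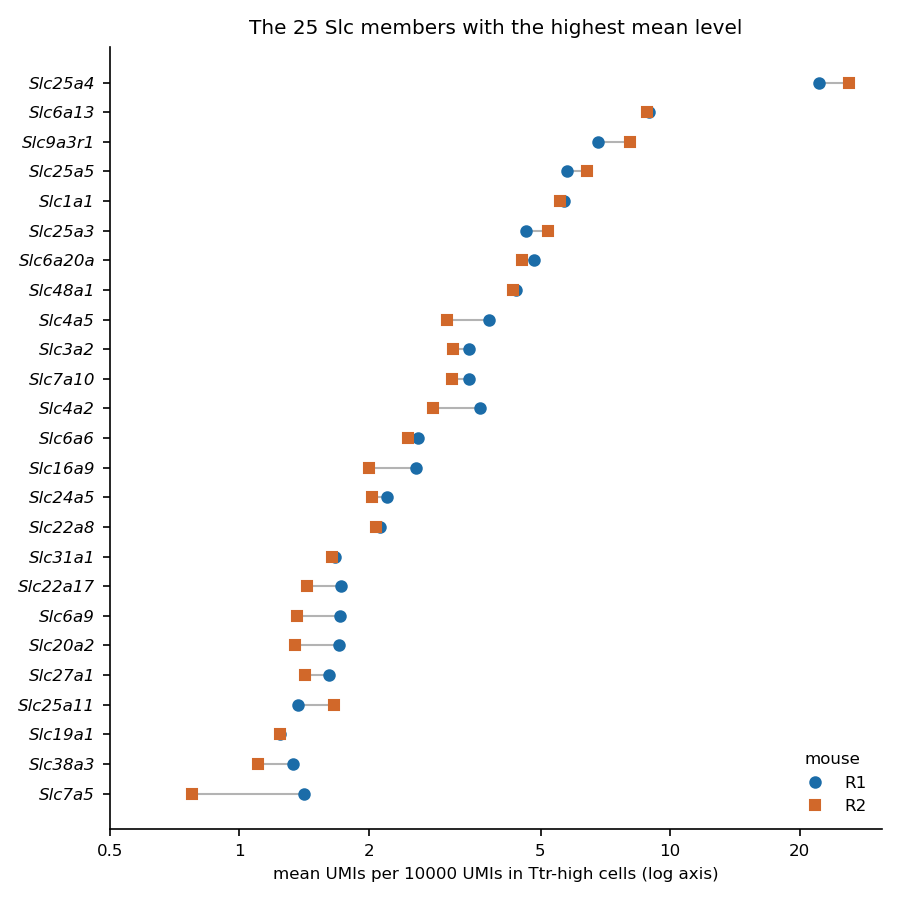
Mean level in Ttr-high cells (UMIs per 10000 UMIs, log axis) of the 25 members with the highest mean over the mice, with circles for R1, squares for R2 and a line joining the mice. Slc25a4 stood apart at 22.1 and 26.0, the other members shown lay below 10, and the mice differed most for Slc7a5 at 1.41 and 0.776.

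Levels fell off steeply below these genes. In R1, 25 members reached 1 UMI per 10000 and 5 reached 5, and in R2 24 and 6 did so. The median member had 0.354 and 0.338 UMIs per 10000. The 10 members with the highest mean over the mice held 54.8% (R1) and 59.0% (R2) of the summed level of all members. This sum came to 128 and 127 UMIs per 10000. Just inside the floor lay Slc35e1 (0.131 and 0.101), Slc52a2 (0.101 and 0.124) and Slc39a6 (0.106 and 0.103), and just outside it Slc26a11 (0.0968 and 0.103), Slc41a2 (0.0957 and 0.109) and Slc7a1 (0.116 and 0.0941).

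The levels of the 2 mice were close. Across the 111 members, which share the libraries of the mice and their depth, Pearson's r of the log2 levels was 0.992 and Spearman's rho of the levels was 0.983. The ratio of R1 to R2 lay within 1.4-fold for 106 members, and 78 of 111 were higher in R1. It ranged from 0.799 for Slc33a1, a carrier of acetyl-CoA, to 1.81 for Slc7a5, the light chain of the exchanger of large neutral amino acids, and only Slc7a5 and the zinc exporter Slc30a1 (0.196 and 0.125) differed by more than 1.5-fold.

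Grouped by substrate, carriers of mitochondrial and peroxisomal metabolites took the largest share of the members' UMIs, with 25 members and a summed level of 40.5 UMIs per 10000 in R1 and 45.5 in R2. Slc25a4, Slc25a5 and Slc25a3 made up most of it. Further members of this class were the oxoglutarate/malate carrier Slc25a11 (1.37 and 1.66), the glutathione carrier Slc25a39 (0.866 and 0.895), and Slc25a42 (0.296 and 0.249), which carries coenzyme A into mitochondria.

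Carriers of amino acids and peptides were second, with 13 members and summed levels of 22.3 and 20.2. Slc1a1, Slc6a20a, Slc3a2 and Slc7a10 led this class. The glutamine transporter Slc38a3 had levels of 1.33 and 1.11 and its relative Slc38a1 of 0.717 and 0.620. The level of Slc3a2, the heavy chain that light chains of the Slc7 family need to reach the membrane, was close to that of Slc7a10, whereas the light chain genes Slc7a5 (1.41 and 0.776) and Slc7a8 (0.384 and 0.348) were lower.

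Carriers of inorganic ions and bicarbonate (13 members) had summed levels of 14.8 and 12.5. Behind Slc4a5 and Slc4a2 came Slc24a5, a potassium-dependent sodium/calcium exchanger of pigment cells, with 2.20 and 2.03. The phosphate transporter Slc20a2 had levels of 1.70 and 1.34, and the sodium-potassium-chloride cotransporter Slc12a2 of 0.814 and 0.777. The sodium bicarbonate cotransporter Slc4a4, which is commonly described in RPE, stood at 0.210 and 0.202 in Ttr-high cells and ranked 77 of 111 (chr5:88886818-89239653, plus strand).

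Carriers of amines and osmolytes (6 members) reached 13.9 and 13.3, most of it from Slc6a13, followed by the taurine transporter Slc6a6 (2.60 and 2.46) and the glycine transporter Slc6a9 (1.71 and 1.36). The level of Slc6a13 was above that of Slc6a6 in both mice. Vitamin, folate and haem carriers (7 members) summed to 7.13 and 6.95, led by Slc48a1 and the reduced folate carrier Slc19a1 (1.24 in both mice). Metal carriers were 15 in number but summed to only 6.58 and 6.01, led by the copper transporter Slc31a1 (1.67 and 1.64). The zinc transporters Slc39a12 (0.821 and 0.795) and Slc30a5 (0.661 and 0.682) followed.

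Outside the excluded genes, 5 members carried monocarboxylates and other organic acids, with sums of 4.49 and 3.62 led by Slc16a9 (2.57 and 2.00). Nucleotide sugar carriers of the Golgi and endoplasmic reticulum had 11 members, all below 0.7, led by the CMP-sialic acid carrier Slc35a1 (0.638 and 0.653). The organic anion transporter Slc22a8 was the only member of its class, with levels of 2.12 and 2.08. Lipid carriers (3 members) were led by the fatty acid transporter Slc27a1 (1.62 and 1.42). Sugar carriers outside the exclusions summed to 1.24 and 1.23, and the highest of the 3 was Slc50a1 (0.411 and 0.492).

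Among single Ttr-high cells, members varied about as much as other genes of the same floor. Cells were thinned to 4000 UMIs each, which left out 370 cells of R1 and 726 of R2, and the Fano factor, the variance of the counts over their mean, was taken over the rest. Its median over the members was 1.31 in R1 and 1.43 in R2, against 1.32 and 1.42 over all genes above the floor. The Fano factor of Slc25a4 was 1.75 and 1.80. The highest value, 3.63 for the ascorbate transporter Slc23a2 in R1, stood against 1.34 in R2.

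**Figure D2:**
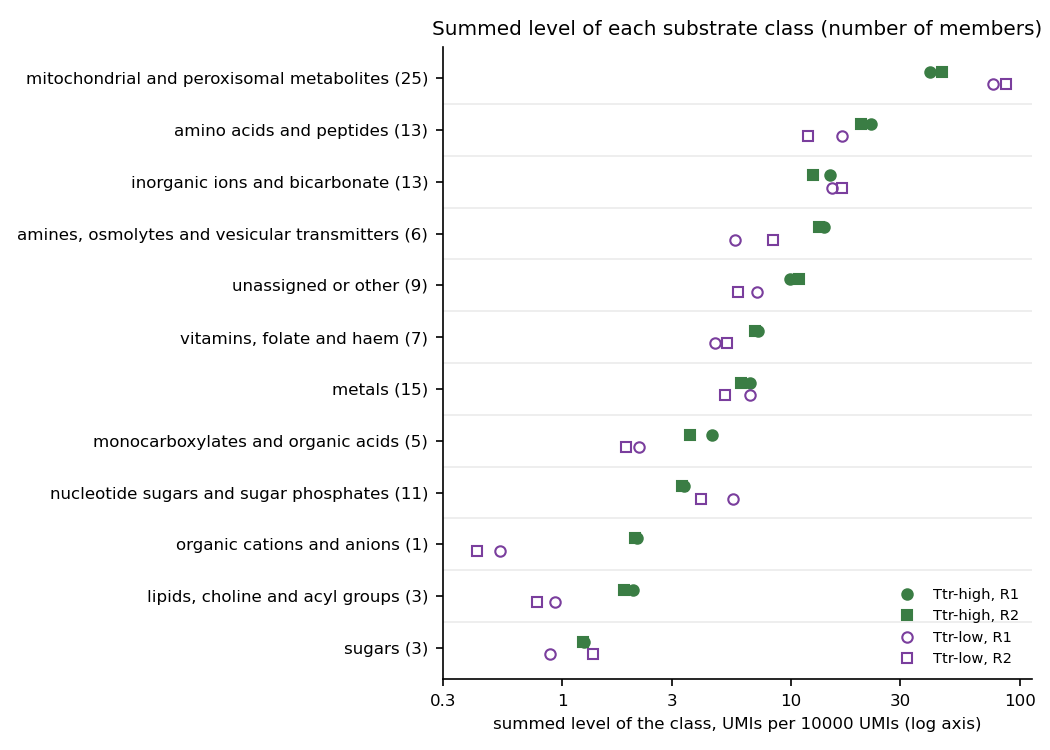
Summed level of each substrate class (UMIs per 10000 UMIs, log axis), with filled symbols for Ttr-high and open symbols for Ttr-low cells, circles for R1 and squares for R2, and the number of members in brackets. Mitochondrial and peroxisomal carriers summed to 40.5 and 45.5 in Ttr-high and to 76.1 and 86.5 in Ttr-low cells. Amines and osmolytes went from 13.9 and 13.3 to 5.66 and 8.32.

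The second question was how these genes differed in Ttr-low cells. UMIs were summed per mouse over Ttr-low and over Ttr-high cells, which gave 4 libraries, and were tested with edgeR's quasi-likelihood test blocked by mouse, with p-values of the 11577 genes tested adjusted by the Benjamini-Hochberg method. With the floor set on Ttr-high cells, members could more readily be lower than higher, so the shares below are set beside those of all genes over the same floor, and no direction is read from them. Log2 fold changes (log2FC, Ttr-low over Ttr-high) are given with their standard error. The median log2FC of all genes tested was -0.39 with TMM scaling, so a gene with log2FC near this value changed like the median gene.

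Of the 111 members, 2 were called higher and 24 lower in Ttr-low cells at an adjusted p below 0.05, and 85 were not called. That is 1.80% and 21.6% of members, against 4.22% and 6.82% of all genes tested and 2.06% and 12.2% of the 6494 genes over the floor. The median log2FC of the members was -0.90, or -0.83 with members at 0 UMIs set to their bound. With library size as the only scaling, the median of all genes moved by 0.76 to 0.37, and 10 members were called higher and 18 lower, against 9.41% and 3.30% of all genes tested and 9.86% and 5.88% of genes over the floor. The 8 members called higher by this scaling and not with TMM were Slc7a4, Slc7a8, Slc25a17, Slc41a1, Slc25a5, Slc22a17, Slc25a3 and Slc6a6. In levels per 10000 UMIs, 35 members were higher in Ttr-low cells of both mice, 47 were lower in both, and 29 went in different directions, against 39.8% higher and 27.7% lower of the genes over the floor.

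Slc4a4 differed most in the upward direction. Its level was 0.210 and 0.202 UMIs per 10000 in Ttr-high cells and 6.51 and 4.69 in Ttr-low cells, which is 31.0 times and 23.2 times higher. Neither Ttr-high mean came near the Ttr-low means, and levels of single cells were not compared. The edgeR log2FC was 3.78 (SE 0.380, adjusted p = 3.5e-21), and the call stood in all 13 alternatives that gave a test. Without cells marked as another type the Ttr-low levels were 7.12 and 5.57. A single cell held 13.9% of the 122 UMIs in R1 and 44.1% of the 34 UMIs in R2.

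Slc3a2 (chr19:8706882-8723369, minus strand) went from 3.41 and 3.13 to 12.3 and 7.13, so the Ttr-low value was above the Ttr-high value in both mice. Its log2FC was 0.86 (SE 0.303, adjusted p = 0.045 by edgeR), close to the threshold, and the call was lost in 6 of 13 alternatives, where the adjusted p ranged up to 0.12. The light chain genes Slc7a10 and Slc7a5, which encode partners of this heavy chain, were both called lower. Slc7a8, another light chain gene, had levels of 0.384 and 0.348 in Ttr-high and 1.30 and 1.46 in Ttr-low cells, with log2FC 1.13 (SE 0.494) and an adjusted p of 0.14 by edgeR.

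The abundant mitochondrial carriers were not called, although their levels were higher in Ttr-low cells of both mice. Slc25a4 had 32.3 and 39.8 UMIs per 10000 in Ttr-low cells, 1.46 and 1.53 times the Ttr-high levels, and a log2FC of -0.30 (SE 0.311), near the median of all genes, which turned to 0.49 with library size as the only scaling. Slc25a5 had 20.9 and 17.9, 3.62 and 2.79 times the Ttr-high levels, and a log2FC of 0.80 (SE 0.299, adjusted p = 0.065 by edgeR). It was called higher in 6 of the 13 alternatives, and its adjusted p over all 13 ranged from 5.5e-11 to 0.16. Slc25a3 had 12.9 and 17.0, with log2FC 0.69 (SE 0.296). Together, mitochondrial and peroxisomal carriers made up 31.6% and 35.8% of the members' level in Ttr-high and 53.6% and 58.4% in Ttr-low cells. Of the 25 mitochondrial and peroxisomal carriers, 0 were called higher and 1 lower by edgeR, beside 2.06% and 12.2% of genes over the floor. With library size as the only scaling, Slc25a5, Slc25a3 and the peroxisomal carrier Slc25a17 were called higher, beside 9.86% of genes over the floor.

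**Figure D3:**
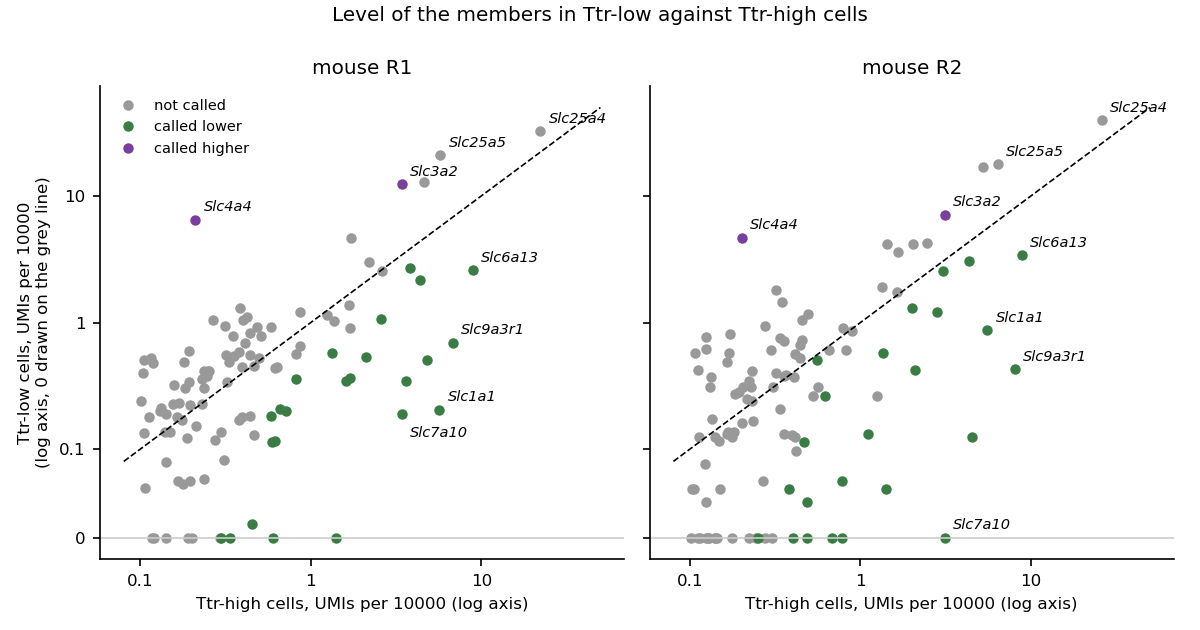
Level of each member in Ttr-low against Ttr-high cells (UMIs per 10000, log axes, a value of 0 drawn on the grey line) in R1 and R2, coloured by the edgeR call, with the dashed line marking equal levels. Slc4a4 lay far above the line in both mice (0.210 against 6.51 and 0.202 against 4.69), and Slc1a1, Slc7a10 and Slc9a3r1 lay far below it.

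The lower calls included amino acid carriers with some of the highest levels in Ttr-high cells. Slc1a1 went from 5.67 and 5.54 to 0.205 and 0.867 UMIs per 10000 (log2FC -4.70, SE 0.453). Slc7a10 went from 3.41 and 3.12 to 0.189 and 0, from 4 and 0 UMIs (log2FC -5.35, SE 0.560). Slc6a20a went from 4.83 and 4.54 to 0.506 and 0.124 (log2FC -4.43, SE 0.455). In each case both Ttr-low values lay below both Ttr-high values. Slc7a5 had 0 and 1 UMIs in Ttr-low cells against levels of 1.41 and 0.776 in Ttr-high cells, and its Ttr-low sum was 0% (exact Poisson 95% interval 0 to 16.1%) and 15.2% (0.386 to 84.9%) of the Ttr-high value. Such percentages compare the gene's UMIs per total UMIs of each sum, so deep cells weigh more than in levels averaged over cells. The glutamine carriers Slc38a3 (log2FC -2.35) and Slc38a1 (log2FC -2.47) were called lower too. Of the 13 members of this class, 6 were called lower, 1 higher and 6 not called. Of genes over the floor, 12.2% were called lower and 2.06% higher. The Poisson intervals cover counting error only.

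Slc9a3r1, the gene of the scaffold that binds carriers and channels at the apical membrane, went from 6.79 and 8.06 to 0.695 and 0.427 (log2FC -4.41, SE 0.413). Its Ttr-low sum was 9.64% (5.13 to 16.5%) of the Ttr-high value in R1 and 5.46% (1.49 to 14%) in R2. For comparison, 7 genes of RPE function (Rpe65, Rlbp1, Rgr, Lrat, Rdh5, Otx2 and Rrh) stood at medians of 8.56% and 4.27% of their Ttr-high values in the same sums, and ranged from 5.90% to 47.8% (R1) and from 1.34% to 44.8% (R2). Among these, Rpe65, Rlbp1, Lrat, Rdh5 and Rrh were reported by the paper as lower in its small cluster of cells from the same libraries. Their low shares here are therefore not independent evidence. The share left was 4.52% and 10.1% for Slc1a1, 10.8% and 2.44% for Slc6a20a, and 6.09% and 0% for Slc7a10. UMIs from free RNA can make up part of such residual values, and their share was not measured. With 10% of the UMIs of each sum taken as free RNA, with the profile of the mouse's cells, and subtracted, 1 member was called higher and 25 lower.

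Of the 13 carriers of inorganic ions and bicarbonate, 4 were called lower and 1, Slc4a4, higher, beside 12.2% and 2.06% of genes over the floor. Slc4a2 went from 3.61 and 2.81 to 0.346 and 1.22 (log2FC -3.09, SE 0.429), although a single cell held 60.0% of its 10 UMIs in R2. Slc12a2 had 7 and 0 UMIs (log2FC -2.64, SE 0.635), and the potassium-chloride cotransporter Slc12a4 had 2 and 3 (log2FC -2.44, SE 0.722). Slc4a5 had the smallest log2FC of the members called lower, from 3.80 and 3.03 to 2.72 and 2.55 (log2FC -1.14, SE 0.340), and its call was lost with DESeq2, with library size as the only scaling and without cells marked as another type. The 3 sodium bicarbonate and anion exchanger genes of the Slc4 family therefore did not move alike, with Slc4a4 higher and Slc4a2 and Slc4a5 lower. Slc24a5 had levels of 2.20 and 2.03 in Ttr-high and 3.01 and 4.18 in Ttr-low cells and was not called (log2FC -0.26, SE 0.341, and up to 0.52 in the alternatives).

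Slc6a13, the most abundant carrier of amines and osmolytes, fell from 8.94 and 8.85 to 2.60 and 3.39 (log2FC -1.56, SE 0.316). Its Ttr-low sum, in UMIs per total UMIs, was 42.2% (33.0 to 53.1%) of the Ttr-high value in R1 and 80.2% (61.8 to 102%) in R2. Averaged over cells, the Ttr-low level was 0.290 (R1) and 0.383 (R2) times the Ttr-high level. The sums weigh deep cells more, and the deepest Ttr-low cell of R2 had 13692 of the 91115 UMIs. A single Ttr-low cell held 31.9% of its 72 UMIs in R1 and a single cell 32.8% of its 64 UMIs in R2. Slc6a9 was called lower (log2FC -2.03, SE 0.474), with Ttr-low sums at 23.1% (9.29 to 47.6%) and 77.1% (35.3 to 146%) of the Ttr-high values. Slc6a6 was not called, with 2.60 and 2.46 in Ttr-high and 2.56 and 4.22 in Ttr-low cells. A single cell held 27.3% and 56.1% of the UMIs of Slc6a6 in the Ttr-low sums.

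For the other classes, the counts stand beside 12.2% of genes over the floor called lower and 2.06% called higher. Of the 5 carriers of organic acids, 3 were called lower. Slc16a9 went from 2.57 and 2.00 to 1.06 and 1.31 (log2FC -1.92, SE 0.402), Slc16a6 had 0 and 1 UMIs left (log2FC -4.64, SE 1.06), and the dicarboxylate transporter Slc13a3 had 3 and 2 (log2FC -2.21, SE 0.761). Slc22a8 went from 2.12 and 2.08 to 0.535 and 0.422 (log2FC -2.33, SE 0.436). Slc27a1 went from 1.62 and 1.42 to 0.345 and 0.0484 (log2FC -3.26, SE 0.547), and Slc48a1 from 4.38 and 4.32 to 2.18 and 3.09 (log2FC -1.58, SE 0.339). Of the 15 metal carriers, the zinc transporters Slc30a5 (4 and 0 UMIs, log2FC -3.12, SE 0.740) and Slc39a4 (2 and 0 UMIs, log2FC -3.74, SE 0.915) were called lower and 0 higher by edgeR. The copper transporter Slc31a1, with 1.67 and 1.64 in Ttr-high and 1.38 and 1.75 in Ttr-low cells, was not called. The hexose transporter Slc2a12 had 1 UMI in each Ttr-low sum, 11.3% (0.286 to 63.0%) and 27.1% (0.687 to 151%) of its Ttr-high value, and was called lower. None of the 11 nucleotide sugar carriers was called by edgeR in either direction. The counts of metal and nucleotide sugar carriers were not far from the shares over all genes of the floor. No trait of these classes is read from them.

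At 0 UMIs in both Ttr-low sums were 5 members, of which edgeR called Slc22a18 and Slc25a42 lower. Slc22a18, a carrier of uncertain substrate in an imprinted region, had levels of 0.335 and 0.403 in Ttr-high cells, and with 3 UMIs over both Ttr-low sums as the floor its level there was at least 3.43-fold lower. The bound was at least 2.40-fold lower for Slc25a42, the coenzyme A carrier. Slc12a7, Slc17a5 and Slc37a2, all below 0.15 UMIs per 10000, were not called. The same floor lay only 1.05-fold to 1.25-fold below their Ttr-high levels. Exact Poisson intervals of their Ttr-low sums reached up to 141% to 170% of the Ttr-high value in R1. In R2 they reached up to 290% to 374%, so no decrease is read for these genes. The floor takes both mice together and covers counting error only. In all, 22 members had 3 or fewer UMIs in both Ttr-low sums together, so that a change of a weakly expressed member was often not detectable at this depth.

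**Figure D4:**
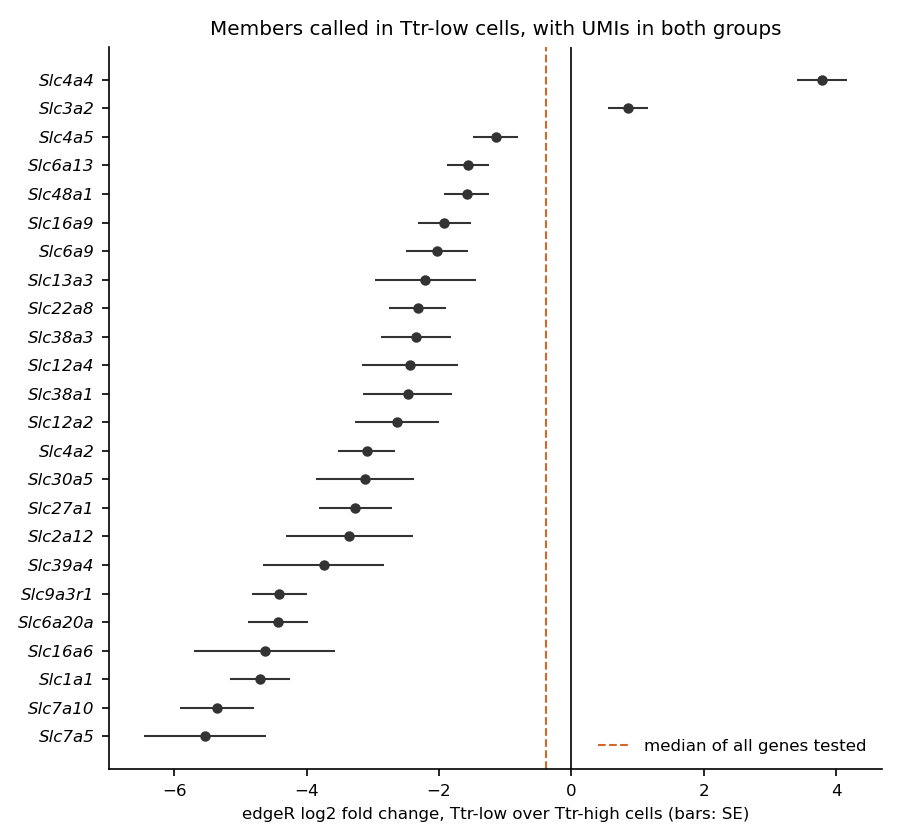
The edgeR log2FC (points, bars for the SE) of the 24 members called in Ttr-low cells that had UMIs in both groups of cells, with the dashed line at the median of all genes tested (-0.39). Slc4a4 (3.78) and Slc3a2 (0.86) lay above 0 and the other 22 members below, from -1.14 for Slc4a5 to -5.54 for Slc7a5.

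Most calls were stable. Of the 26 called members, 18 kept the call in the same direction in all 13 alternatives with a test. Losses were seen for Slc3a2, Slc4a5, Slc13a3, Slc12a4, Slc38a1, Slc2a12, Slc6a9 and Slc25a42, most often with DESeq2 or with library size as the only scaling. Without the block for the mouse, 9 members were called higher and 40 lower.

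Windows before the start sites of the called members were read from RefSeq (GRCm38.p6) to show the sequences beside the genes that were lower together. A promoter window was found for 88 of the 111 members. The following 4 windows of 250 bases end right before the start site, overlap no annotated exon, and belong to members that were called lower in every alternative. They are Slc7a10 (chr7:35186135-35186384, plus strand), Slc9a3r1 (chr11:115163091-115163340, plus strand), Slc27a1 (chr8:71568621-71568870, plus strand) and Slc30a5 (chr13:100833428-100833677, minus strand). Capitals mark a CACGTG motif, which is present only in the window of Slc30a5, 61 bases before the start.
Slc7a10: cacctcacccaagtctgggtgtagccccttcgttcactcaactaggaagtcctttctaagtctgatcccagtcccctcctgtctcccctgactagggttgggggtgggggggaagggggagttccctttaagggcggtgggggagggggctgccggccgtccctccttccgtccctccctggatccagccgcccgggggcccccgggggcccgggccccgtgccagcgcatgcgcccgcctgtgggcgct
Slc9a3r1: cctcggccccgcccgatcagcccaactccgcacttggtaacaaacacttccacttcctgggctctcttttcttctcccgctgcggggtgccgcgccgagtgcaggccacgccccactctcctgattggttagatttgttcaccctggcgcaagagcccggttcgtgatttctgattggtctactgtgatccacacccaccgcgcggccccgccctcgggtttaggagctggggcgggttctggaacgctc
Slc27a1: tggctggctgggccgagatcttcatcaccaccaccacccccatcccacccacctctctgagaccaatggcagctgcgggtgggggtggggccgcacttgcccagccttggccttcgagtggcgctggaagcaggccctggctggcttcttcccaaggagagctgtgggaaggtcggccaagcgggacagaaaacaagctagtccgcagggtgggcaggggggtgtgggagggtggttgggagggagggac
Slc30a5: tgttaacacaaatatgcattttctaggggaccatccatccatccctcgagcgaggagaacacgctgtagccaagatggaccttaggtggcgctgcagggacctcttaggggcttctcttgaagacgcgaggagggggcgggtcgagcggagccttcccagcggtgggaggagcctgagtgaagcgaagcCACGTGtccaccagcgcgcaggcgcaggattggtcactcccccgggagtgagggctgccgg

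Windows reaching from 250 bases before to 50 bases after the start were searched on both strands for 5 motifs. CACGTG was found in 11 of 88 windows of members (12.5%), against 7.24% of all 27025 promoters, and in 2 of the 17 windows of members called lower. CATGTG, another E-box, was found in 9.09% against 14.1%, TAATCC in 5.68% against 7.16%, TATAAA in 7.95% against 14.2%, and TGACGTCA in 1.14% against 1.88%. None of these motifs was found in the windows of Slc4a4 and Slc3a2. These matches describe letters in the windows and no binding.

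A contrast that the choice of members did not use was made within Ttr-high cells, which were split in each mouse by UMIs per cell into shallow, middle and deep cells of equal number. Medians were 4393 and 3481 UMIs in shallow and 14433 and 17022 in deep cells. Of 11067 genes tested with edgeR, 0.687% were called between deep and shallow cells (0.108% higher and 0.578% lower), and of genes over the floor 0.739% (0.108% higher and 0.631% lower). Among the members, 1 was called, Slc7a5, which was lower in deep cells (log2FC -0.71, SE 0.143, adjusted p = 0.00025). Its level in shallow, middle and deep cells was 1.93, 1.36 and 0.932 in R1 and 0.777, 0.931 and 0.621 in R2. The values fell steadily in R1, whereas in R2 the middle cells were highest, and the gap between shallow and deep cells was smaller. Neither DESeq2 (adjusted p = 0.34) nor edgeR without the block (adjusted p = 1.0) made this call.

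The other members showed little difference by depth. The size of the log2FC had a median of 0.12 over the members, and its largest value was 0.82 for the mitochondrial carrier Slc25a14, which was not called (SE 0.249). The ratio of deep to shallow cells lay within 1.5-fold for 103 members in R1 and 108 in R2. It was higher in both mice for 26 members and lower in both for 30, against 32.9% and 23.1% of genes over the floor. At an unadjusted p below 0.05 by edgeR, 12 of the 111 members differed. The share of all genes under this threshold was not counted, so nothing is read from that number.

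**Figure D5:**
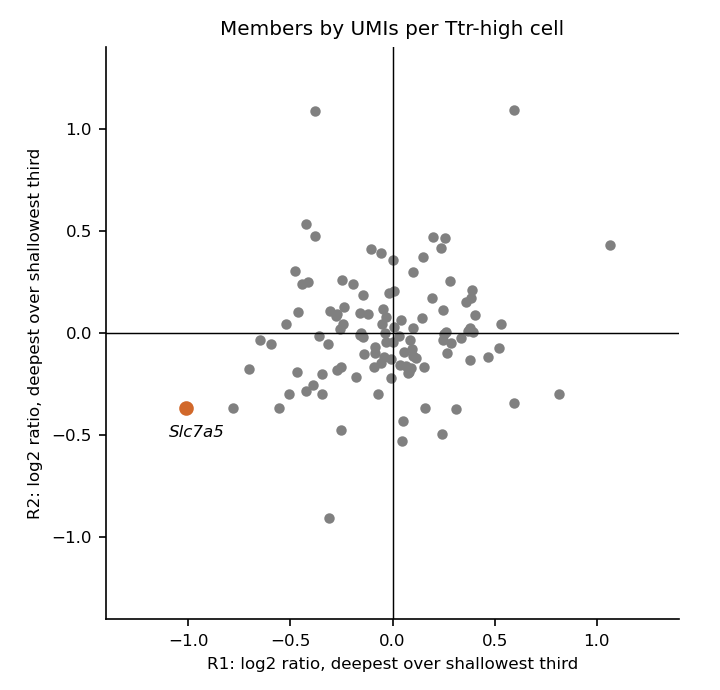
The log2 ratio of each member between deep and shallow Ttr-high cells in R1 (x axis) and R2 (y axis), with Slc7a5 in orange. Slc7a5 was lower in deep cells of both mice (-1.01 and -0.37), and the other points scatter around 0 with no gene called.

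Apart from Slc9a3r1, a member counted here again, and Slc9a3r2, further carriers and carrier partners came from lists outside the Slc symbols. In Ttr-low cells, 6.82% of all genes tested were called lower and 4.22% higher by edgeR, and 12.2% and 2.06% of genes over the floor. Of 21 tested carriers whose mouse symbol does not start with Slc and a number, 6 were lower and 0 higher. They included the organic anion transporters Slco1a4 (1.58 and 1.37 to 0.0669 and 0.128) and Slco1c1 (1.60 and 1.48 to 0.145 and 0), the lysolipid transporter Mfsd2a (1 and 0 UMIs left), Pqlc1 (2 and 1 UMIs left) and the sphingolipid transporter Spns2 (0 in both). Of 18 tested partners of carriers, 8 were lower and 6 higher, beside the same shares. Lower were Slc9a3r1 itself, the carbonic anhydrases Car12 (log2FC -4.12, SE 0.478) and Car14 (-3.02, SE 0.340), Bsg, the chaperone of monocarboxylate transporters (90.1 and 88.8 to 26.0 and 22.4), and Ostm1. Those higher included Fxyd6, Emb, Fxyd1 and Car2, which were all below 0.02 UMIs per 10000 in Ttr-high cells. Genes this low there entered the test through their UMIs in Ttr-low cells, so no direction is read from them. Of all 5083 tested genes below the floor, 6.98% were called higher. Emb, a second chaperone of monocarboxylate transporters, had 0.756 and 2.45 in Ttr-low cells, and the carbonic anhydrase Car2 2.42 and 4.18. The sodium pump subunit Atp1b3, named after its values were seen, went from 0.298 and 0.340 to 6.22 and 7.43. None of the genes of these lists was called by depth with edgeR.

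Below the floor of 0.1, which keeps such genes low in Ttr-high cells, 253 Slc genes remained, and 87 of them were tested. With edgeR, 10 were higher in Ttr-low cells and 0 lower, against 6.98% higher and 0 lower of all 5083 tested genes below the floor, and no direction is read from genes held low by the floor. The highest in Ttr-low cells were Slc6a15, a carrier of neutral amino acids (0.0383 and 0.0345 to 1.68 and 2.04), the anion exchanger Slc26a4 (0.000304 and 0.00455 to 0.345 and 2.91), Slc35g1 (0.0223 and 0.0155 to 0.767 and 1.71), the choline transporter Slc44a1 (0.0777 and 0.0616 to 0.268 and 1.49) and Slc38a8 (0.00347 and 0.00174 to 0.825 and 0.641). Slc44a1 was not called. The Ttr-low level of Slc26a4 was far higher in R2 than in R1.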

How the data were processed

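UMI counts per gene and cell, whole numbers without normalization, were deposited by the authors for each of 2 mice. Reads had been aligned to GRCm38 with Cell Ranger 1.2.0 per the labels. The labels and the methods name different versions of the 10x chemistry. Cells were counted as deposited, without removal of ambient RNA or doublets. The level of a gene is its UMIs per 10000 of a cell's UMIs, averaged over cells. Because cells of a mouse are no replicates, UMIs were summed per mouse and cell group and tested with edgeR 4.0.16 (R 4.3.3) by the quasi-likelihood test, with TMM scaling, filterByExpr, Benjamini-Hochberg adjustment and a threshold of 0.05. Both sums of a mouse come from the same animal, so the mouse entered as a block. Deviations of paired sums correlated at 0.05 (Ttr-low and Ttr-high) and 0.34 (shallow and deep). The SE is the size of the log2FC over the square root of the F statistic. Replication is 2 mice. With 4 sums and a block for the mouse, each gene has little spread of its own. The p-values therefore lean on dispersion shared across genes and are a weak measure of the spread among animals. The depth of the Ttr-low sums (192400 and 91115 UMIs) limits weak genes. Scripts were tested on simulated data. DESeq2 1.42.0 and other settings were alternatives, of which TMMwsp scaling was chosen after seeing the data. Members, substrate classes and lists were chosen with earlier results of these data known. Named members were the 12 highest, the highest of each class, the 10 largest changes per direction and test, and the 3 genes on each side of the floor. Other members were named after their values were seen. Coordinates are those of GENCODE for GRCm38.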

Additional observations from a re-analysis of the deposited data

How the results depend on the processing

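The number of members stayed close to 111 under every alternative to the rule, from 109 to 119, and without replicate 1 or 2 it was 115 and 118. The number of members called higher in Ttr-low cells, 2 in the report, rested on Slc3a2. It was 1 with DESeq2, with TMMwsp scaling, with no filter, with ambient RNA subtracted, with Ttr-low below 2% and without the 4% of cells with the most UMIs. It rose to 4 without cells marked as another type, to 5 with no mitochondrial limit, to 9 with no replicate block and to 10 with library size as the only scaling. The number called lower was 40 with no replicate block and from 18 to 26 in the other alternatives. Over all genes, 489 were higher and 790 lower, against 504 and 431 with DESeq2, 1089 and 382 with library size only, and 924 and 1340 with no replicate block. Without replicate 1 or 2 no test was possible, since a single mouse leaves no spread, and the members' median log2FC was -1.32 and -0.76. By cell depth, the single call of Slc7a5 went to 0 calls with DESeq2 (5 members at an unadjusted p below 0.05) and with edgeR and no replicate block (7 members). Shares of all genes under this unadjusted threshold were not counted. No called member changed direction in these alternatives, whereas many uncalled members changed sign, among them Slc25a4 and Slc24a5. The cause of these changes was not tested.

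Precision was limited by the 59 and 19 Ttr-low cells, whose sums give a floor of 0.106 UMIs per 10000 over both mice at 3 UMIs, above the Ttr-high level of the weakest members. Shallower Ttr-low cells, their higher mitochondrial share and a median shift of 0.76 between scalings move with the contrast. Fold changes fitted for members at 0 UMIs depend on the prior count and are no bounds.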
